A study of Mus musculus with 7 samples.

Results

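The microRNAs mmu-miR-10a, mmu-miR-10b, mmu-miR-196a and mmu-miR-196b, written below without the mouse prefix, are encoded inside the Hox gene clusters, and their levels in kidney were compared between megabladder (mgb-/-) and wild-type (mgb+/+) mice. The 4 were chosen by name, as the rows of the array files that carry these names, out of 611 mouse microRNAs on the array. They are read by 10 of the array's 1857 probes. Groups were 3 mgb-/- males and 4 mgb+/+ males, all 3.5 to 4 weeks old, with whole-kidney RNA of each mouse on 1 array. The megabladder line is a mutant whose bladder forms without normal smooth muscle, so that urine backs up and the kidney dilates, and the labels call its kidneys obstructed. The series text names 4 mutant kidneys, and the first megabladder mouse was not analysed here. The strain is not given in the labels. Since the RNA is of whole kidney, each value averages all cell types of the organ. Fewer cells of a type and less RNA per cell cannot be told apart.

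Hox genes encode transcription factors that give cells along the body axis their position, and the order of the genes in a cluster follows the order of the body regions where they act. MicroRNAs are short RNAs that pair with messenger RNAs, mainly through a seed near their 5′ end, and lower the output of those messages. miR-196 directs cleavage of the Hoxb8 message in the mouse, and in human cells miR-10b represses HOXD10. Hox messages are thus among the known targets of both families.

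The mature sequences are shown because they set which paralogs the array can tell apart. They are given 5′ to 3′ from RefSeq (GRCm38.p6), where all 4 array names matched a 5′ arm, with the seed (bases 2 to 8) in capitals.
miR-10a: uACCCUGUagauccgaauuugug
miR-10b: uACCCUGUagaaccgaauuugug
miR-196a: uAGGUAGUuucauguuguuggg
miR-196b: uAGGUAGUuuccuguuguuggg
The members form 2 seed groups, and no other mouse microRNA in the RefSeq table carries either seed. miR-10a and miR-10b have 23 bases and differ at 1 of them, U12A, with positions counted from 1 at the 5′ end and the base of miR-10a first. miR-196a and miR-196b have 22 bases and differ at 1, A12C, at the same position. Each pair thus differs outside the seed and is identical over the rest, and the arrays give no measure of how much of one paralog binds the probes of the other.

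In that annotation Mir10a (chromosome 11) lies within the span of Hoxb3, next to Hoxb4. Mir10b (chromosome 2) lies within the spans of Hoxd3 and Hoxd4. miR-196a comes from 2 genes, Mir196a-1 (chromosome 11) between Hoxb13 and Hoxb9, and Mir196a-2 (chromosome 15) between Hoxc10 and Hoxc9, which the array cannot separate because the mature sequence is the same. Mir196b (chromosome 6) lies between Hoxa9 and Hoxa10. The hairpins of the miR-10 genes are shown with the mature strand in capitals, to place it in the 5′ arm of its precursor.
Mir10a hairpin: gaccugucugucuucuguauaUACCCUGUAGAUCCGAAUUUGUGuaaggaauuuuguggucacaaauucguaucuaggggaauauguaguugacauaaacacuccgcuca
Mir10b hairpin: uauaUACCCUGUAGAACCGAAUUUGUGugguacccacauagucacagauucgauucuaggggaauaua

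All 10 probes of the members were well above background on all 7 arrays, in 70 of 70 readings, and all 4 were among the 213 microRNAs tested. The dimmest of those readings was 32.9 scanner units before scaling. Levels below are scanner units after each array was scaled by the 75th percentile of its clearly detected probes, averaged over the probes of a microRNA on the log2 scale. Their precision is limited by the number of arrays. Kidney identity was checked with tubule microRNAs, of which 10 of 11 were tested and miR-215 did not exceed background clearly on any of the arrays. Of 7 markers of other tissues none was tested, and miR-124, miR-9, miR-133a and miR-206 exceeded background clearly on none of the arrays. miR-1 did so on 2 arrays, and miR-122 and miR-375 on 1 each.

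No difference between the genotypes was shown for any of the 4. The test was limma with Benjamini-Hochberg adjustment over all 213 microRNAs, in which 0 of 4 members passed at 0.05 against 3.29% of all tested (2.82% higher and 0.469% lower in megabladder). The lowest unadjusted p among the members was 0.418. In all 4 the values of the genotypes overlapped, whereas they did not overlap in 22.1% of tested microRNAs (18.8% higher and 3.29% lower in megabladder). The shares over all tested, here and below, include microRNAs near the floor set for low values (log2 3.51). A probe entered with 3 arrays above background, which the megabladder arrays alone could supply. The 6 microRNAs called higher had wild-type means of log2 3.55 to 3.83, against 6.95 to 9.25 for the members. These shares are thus not drawn from microRNAs of like level. Whether a difference exists within the intervals given below was not detectable with this number of arrays.

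miR-10a, the member encoded beside Hoxb4, had 542, 741 and 460.5 units in megabladder mice 2, 3 and 4, against 601, 701, 583 and 567 units in wild-type mice 1 to 4. Megabladder mouse 3 was the highest of all 7 mice and the other two megabladder mice were the lowest. The means were 581 ± 144 units in megabladder kidneys and 613 ± 60.2 units in wild-type kidneys (SD, n = 3 and n = 4). The log2 difference, megabladder minus wild-type, was -0.10, with a 95% interval of -0.51 to 0.30 and an adjusted p of 0.828 in limma.

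miR-10b, encoded in the Hoxd cluster, followed the same order among the mutants. It had 353, 416 and 302 units in megabladder mice 2, 3 and 4, against 389.8, 429, 356 and 359 units in wild-type mice 1 to 4. Here wild-type mouse 2 was highest, and megabladder mice 2 and 4 again lay below every wild-type mouse. The means were 357 ± 57.4 units in megabladder and 383 ± 33.8 units in wild-type kidneys (SD, n = 3 and n = 4). The log2 difference was -0.11 (95% interval -0.43 to 0.20, limma adjusted p = 0.724).

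miR-196a, whose mature strand both of its genes share, had 135, 116 and 134 units in megabladder mice 2, 3 and 4, against 132, 137, 108 and 118 units in wild-type mice 1 to 4. Every megabladder value lay inside the wild-type range. The means were 128 ± 10.9 units in megabladder and 124 ± 13.3 units in wild-type kidneys (SD, n = 3 and n = 4). The log2 difference was 0.05 (95% interval -0.23 to 0.33, limma adjusted p = 0.885), and it was -0.010 without wild-type mouse 3.

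miR-196b, made between Hoxa9 and Hoxa10, had 142, 123 and 153 units in megabladder mice 2, 3 and 4, against 138, 142, 115 and 123 units in wild-type mice 1 to 4. Megabladder mouse 4 was the highest of the 7 and wild-type mouse 3 the lowest. The means were 139 ± 15.4 units in megabladder and 129.5 ± 12.7 units in wild-type kidneys (SD, n = 3 and n = 4). The log2 difference was 0.10 (95% interval -0.18 to 0.39, limma adjusted p = 0.710). With spots that the scanner software marked as outliers kept, it was -0.22, through 1 probe of wild-type mouse 1.

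**Figure D1:**
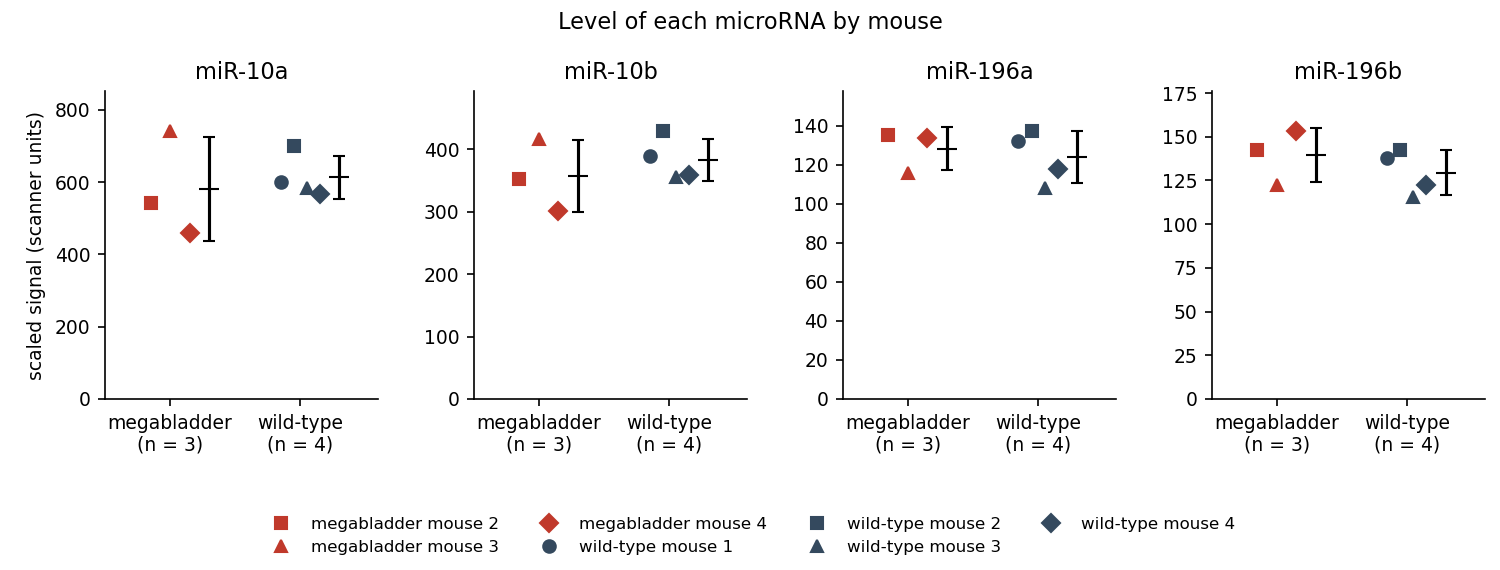
Scaled signal in scanner units (vertical axes from 0, one scale per panel) of miR-10a, miR-10b, miR-196a and miR-196b in 3 megabladder and 4 wild-type kidneys, with a symbol for each mouse and the mean ± SD beside each group. The genotypes overlap in all 4 panels, and megabladder mouse 3 is high for the miR-10 pair (741 and 416 units) and low for the miR-196 pair (116 and 123 units).

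The probes of each microRNA were read separately as well. The 2 probes of miR-10a gave log2 differences of -0.12 and -0.08, and the 2 of miR-10b gave -0.14 and -0.09. The 2 probes of miR-196b gave 0.08 and 0.13. Among the 4 probes of miR-196a the dimmest gave -0.03 and the other three gave 0.06 to 0.09, so its sign depends on the probe. Within an array the spots of a member's probe had a coefficient of variation of 1.51% to 17.7%, the highest for that dim miR-196a probe.

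**Figure D2:**
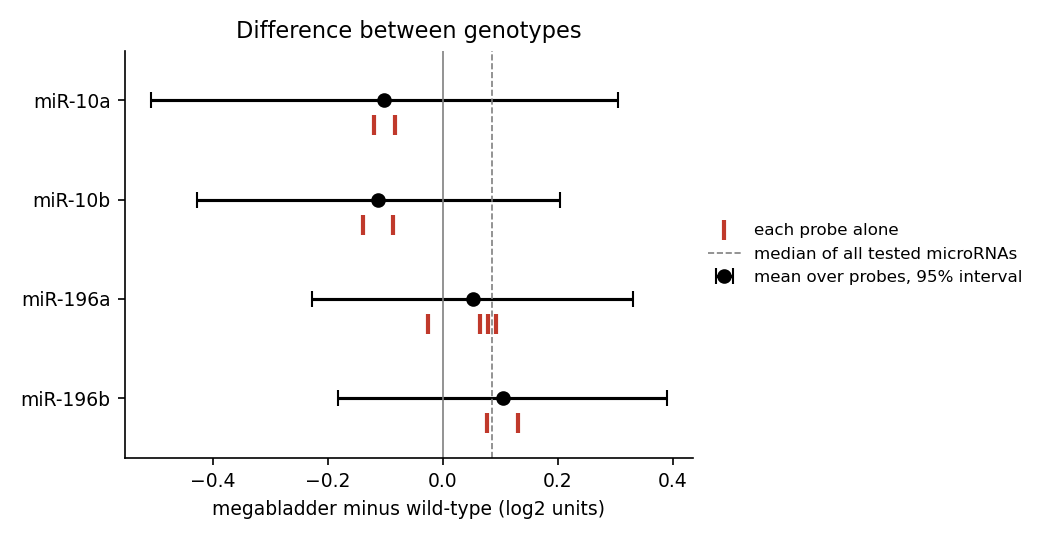
Log2 difference, megabladder minus wild-type, of each member (black points, 95% interval from limma) and of each of its probes alone (red ticks), with lines at 0 (solid) and at the median of all 213 tested microRNAs (dashed, 0.09). All 4 intervals include 0, and the probe values run from -0.14 to 0.13.

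Paralogs were then compared within each array, where a scaling factor cancels. The signal of miR-10a was 1.54, 1.78 and 1.53 times that of miR-10b in megabladder mice 2, 3 and 4, against 1.54, 1.63, 1.64 and 1.58 times in wild-type mice 1 to 4. The log2 ratio averaged 0.69 ± 0.13 in megabladder and 0.68 ± 0.04 in wild-type kidneys (SD, n = 3 and n = 4). The difference of 0.01 had a 2-sided exact permutation p of 0.914, and 0.914 after adjustment over the 2 ratios tested, where the smallest p that 35 splits allow is 0.0286. The groups overlapped, and megabladder mouse 3 had the highest ratio.

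For the other pair, the signal of miR-196a was 0.950, 0.942 and 0.873 times that of miR-196b in megabladder mice 2, 3 and 4, against 0.958, 0.964, 0.938 and 0.961 times in wild-type mice 1 to 4. The log2 ratio averaged -0.12 ± 0.07 in megabladder and -0.07 ± 0.02 in wild-type kidneys (SD, n = 3 and n = 4). The difference was -0.05 (2-sided exact permutation p = 0.114, 0.229 adjusted over the 2 ratios). Megabladder mouse 4 had the lowest ratio, and the other mice lay close together.

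These ratios do not give the order of abundance of the paralogs, because probes differ in brightness. The brightest probe of one microRNA exceeded its dimmest by 2.32 times for miR-10a, 2.81 times for miR-10b, 3.94 times for miR-196a and 2.29 times for miR-196b. Each of these is larger than 1.78, the highest ratio of miR-10a to miR-10b on any array. With that limit the members stood in the order miR-10a, miR-10b, miR-196b, miR-196a on all 7 arrays, and the step between the miR-196 paralogs was the smallest. The part that binding of one paralog to the other's probes has in the paralog ratios was not tested.

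The families were then set against each other within each array. The mean log2 level of the miR-10 pair exceeded that of the miR-196 pair by 1.66, 2.22 and 1.38 in megabladder mice 2, 3 and 4, against 1.84, 1.97, 2.03 and 1.91 in wild-type mice 1 to 4. Megabladder mice 2 and 4 lay below every wild-type mouse and megabladder mouse 3 above every one. The means were 1.75 ± 0.43 in megabladder and 1.94 ± 0.08 in wild-type kidneys (SD, n = 3 and n = 4), so the means lay closer together than the megabladder values lay to each other. The spreads were not compared by a test.

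**Figure D3:**
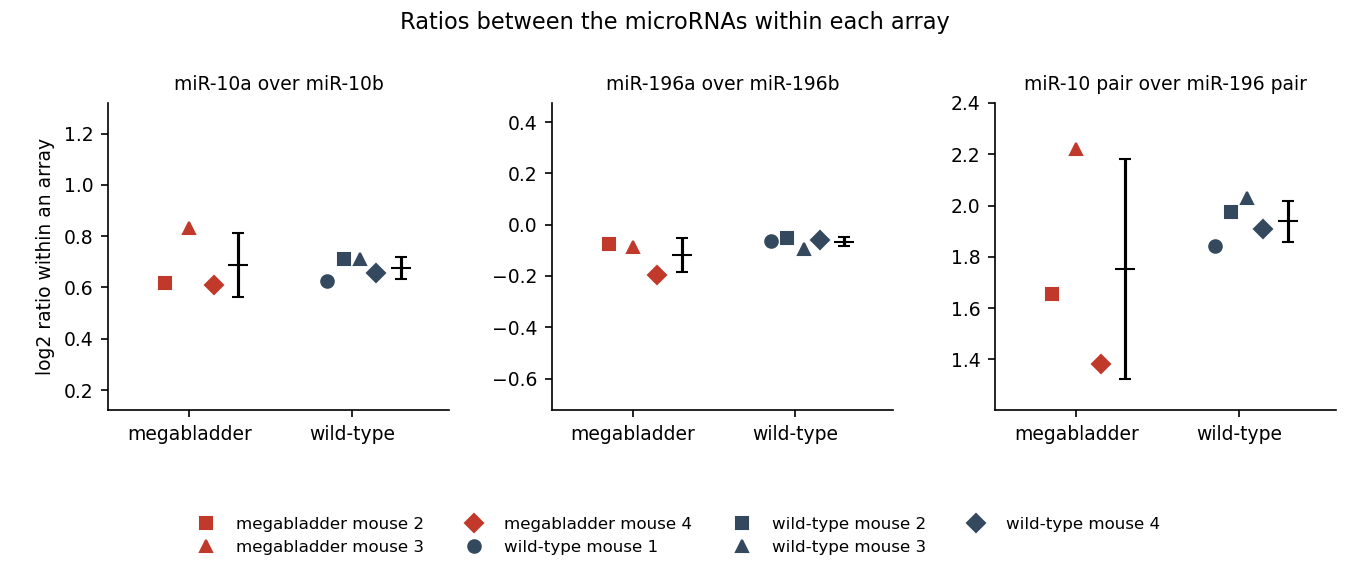
Log2 ratio within each array of miR-10a to miR-10b, of miR-196a to miR-196b, and of the mean of the miR-10 pair to the mean of the miR-196 pair, in 3 megabladder and 4 wild-type mice, with mean ± SD beside each group and the same span on every vertical axis. The paralog ratios lie close together (SD over 7 arrays 0.08 and 0.05), while the ratio between families runs from 1.38 to 2.22 in megabladder mice and from 1.84 to 2.03 in wild-type mice.

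Marker microRNAs also differed among the megabladder mice, and not in mouse 3 alone. miR-192, a microRNA of the proximal tubule, stood at 1306, 726 and 1259 units in megabladder mice 2, 3 and 4, against 1129, 1073, 1167 and 1161 units in wild-type mice 1 to 4. The 10 tested tubule microRNAs summed to 5422, 4528 and 5303 units in megabladder mice 2, 3 and 4, against 5036 to 5218 units in wild-type mice. The 6 stromal and smooth muscle microRNAs, all tested, summed to 632, 759 and 519 units in those megabladder mice, against 430.3 to 554 units in wild-type mice. Mouse 3 was thus lowest in the tubule sum and highest in the stromal sum of all 7 mice, and the part of either in the miR-10 levels was not tested. The tubule microRNAs did not move together in it. Of the 10 tested, 4 were lowest of all mice in mouse 3 (miR-192, miR-194, miR-200b and miR-429), 4 were highest there (miR-204, miR-30d, miR-200c and miR-141), and miR-30a and miR-200a were neither. Without miR-192 the tubule sum was 4116, 3802 and 4044 units in megabladder mice 2, 3 and 4, against 3907 to 4052 units in wild-type mice. The endothelial sum (2 of 2 tested) was 1364 to 1668 units in megabladder and 1565 to 1627 units in wild-type mice, with megabladder mouse 3 lowest. It was mostly miR-126-3p (megabladder mean log2 10.54, against 4.69 for miR-126-5p). The erythroid sum (3 of 3 tested) was 1952, 2359 and 3724 units in megabladder mice 2, 3 and 4. In wild-type mice it was 2129 to 2811 units, so megabladder mouse 4 was highest and mouse 2 lowest. This sum was mostly miR-451 (megabladder mean log2 11.26, against 6.26 for miR-144 and 5.45 for miR-486). The leukocyte sum (4 of 6 tested) was 139 to 200.3 units in megabladder and 153 to 201 units in wild-type mice, and megabladder mouse 3 was again lowest of the 7. The urothelial sum (3 of 3 tested) was 115, 59.7 and 73.2 units in megabladder mice 2, 3 and 4. In wild-type mice it was 58.8 to 64.0 units, so megabladder mouse 2 was highest. Part of this sum is floor values, since miR-205 stood at the floor of 11.4 units in every wild-type mouse. It was higher in megabladder without overlap, as were 18.8% of all tested, with a log2 difference of 1.23 (limma adjusted p = 0.0712). The differences of miR-31 (0.44) and miR-203 (-0.17) came with overlap. None of the microRNAs in these lists passed in limma.

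Each megabladder mouse was left out in turn. Without megabladder mouse 3 the log2 difference was -0.29 for miR-10a (limma adjusted p = 0.233) and -0.23 for miR-10b (adjusted p = 0.289), with both remaining megabladder values below every wild-type value. With that mouse left out, 5.63% of all tested microRNAs lay lower without overlap and 39% did not overlap in either direction. Without megabladder mouse 4 the same differences were 0.05 (adjusted p = 0.861) and 0.0030. For miR-196a and miR-196b the values without mouse 3 were 0.13 and 0.19, with limma adjusted p of 0.528 and 0.344. The lower of the remaining megabladder values of miR-196b and its highest wild-type value were then both 142 units, and miR-196a overlapped. Without mouse 4 the differences were 0.02 for miR-196a and 0.03 for miR-196b. Without mouse 2 they were -0.06 for miR-10a, -0.11 for miR-10b, 0.01 for miR-196a and 0.09 for miR-196b. None passed.

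**Figure D4:**
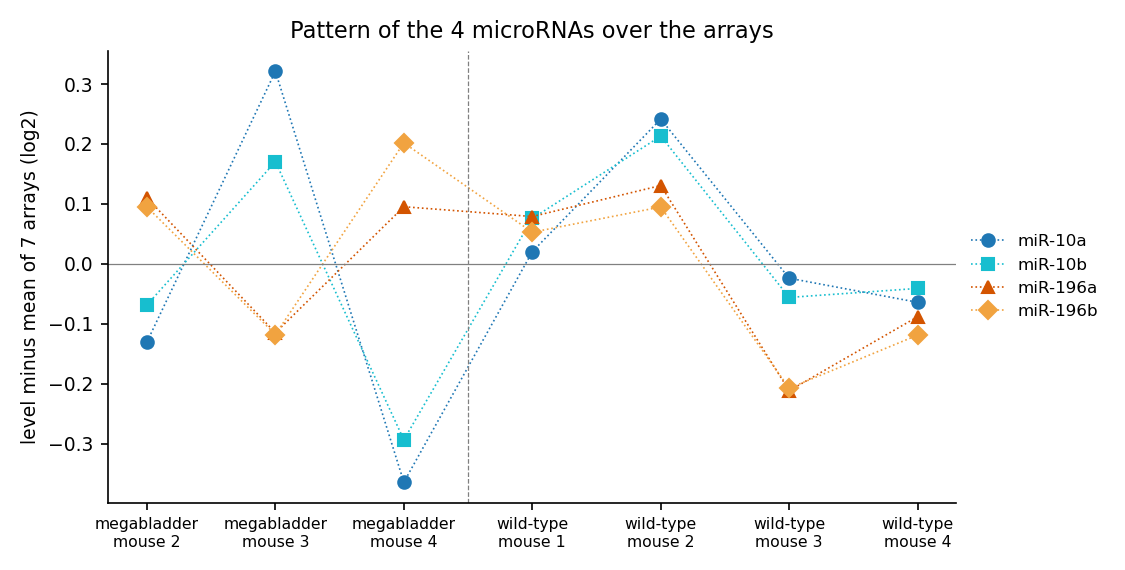
Log2 level of each member minus its own mean over the 7 arrays, by mouse, with the megabladder mice left of the dashed line; dotted lines join the values of one microRNA and carry no time order. The paralogs of a pair lie close together on every array. In these scaled values the miR-10 and miR-196 pairs lie on opposite sides of 0 in all 3 megabladder mice. In each of the 4 wild-type mice they lie on the same side. The side depends on the scaling of the arrays.

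The pattern of each member over the 7 arrays was set against the other 212 tested microRNAs, by the SD over arrays of the difference in log2 level, which is small where 2 microRNAs keep a constant ratio. For miR-10a the closest of all was miR-10b (SD 0.08), and the closest outside the family were miR-218 (0.10), miR-27a (0.12) and miR-200c (0.12). For miR-10b the closest was miR-218 (0.04), ahead of miR-10a, then miR-30e* (0.10) and miR-23a (0.11). The median over all other microRNAs was 0.36 for miR-10a and 0.31 for miR-10b.

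For miR-196a the closest was miR-196b (0.05), and outside the family miR-324-5p, let-7d and miR-125b-5p (0.09 each). For miR-196b it was miR-196a, then miR-324-5p (0.06), miR-15b (0.08) and miR-20b (0.10). The medians over all others were 0.23 for miR-196a and 0.24 for miR-196b. Between the families the distances were larger than within them. By likeness to miR-10a, miR-196a ranked 68 (SD 0.29) and miR-196b ranked 80 (0.32) of 212, and by likeness to miR-10b they ranked 52 (0.22) and 66 (0.26), all on the closer side of the medians. By likeness to miR-196a, miR-10b ranked 103 and miR-10a 129, and by likeness to miR-196b they ranked 121 and 147. These distances describe 7 arrays that share 1 slide, and carry no test. How much one paralog binds the probes of the other was not measured, so its part in the small distances within a pair is not known. The members' own SD over the arrays, 0.23 for miR-10a, 0.17 for miR-10b, 0.14 for miR-196a and 0.15 for miR-196b, may be read against a median of 0.22 over all tested microRNAs.

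Other products of the Hox clusters on the array were mostly below detection. Of 5 such microRNAs none was tested. The passenger strands miR-10a*, miR-10b* and miR-196a*, which share precursors with the members, were not well above background with any of their 4 probes each on any array, and their highest scaled signal was 7.72, 2.82 and -0.04 units. miR-615-5p, from a precursor within Hoxc5, was likewise not well above background. Its partner miR-615-3p was well above background with 1 of 4 probes on 2 arrays, those of megabladder mice 3 and 4, and reached 14.8 units where the floor of the scaled values is 11.4 units.

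The microRNAs miR-99a, miR-99b and miR-100 carry a related sequence with a different seed, and are shown for comparison with the miR-10 pair.
miR-99a: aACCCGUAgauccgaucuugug
miR-99b: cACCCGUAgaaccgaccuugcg
miR-100: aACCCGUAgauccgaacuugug
The longest run shared with miR-10a was 10 bases in miR-99a and 11 bases in miR-100, and miR-99b shared 10 bases with miR-10b. None of the 3 passed in limma. miR-99a had 206 to 218 units in megabladder and 210.3 to 248 units in wild-type mice, a log2 difference of -0.11 (adjusted p = 0.558). miR-99b had 41.8 to 56.6 units in megabladder and 36.1 to 47.3 units in wild-type mice, a log2 difference of 0.23 (adjusted p = 0.455). miR-100 had 37.3 to 44.7 units in megabladder and 30.6 to 38.7 units in wild-type mice, a log2 difference of 0.30 (95% interval -0.01 to 0.60, adjusted p = 0.224). The median difference of these 3 was 0.23, that of the 4 Hox cluster members -0.02 and that of all 213 microRNAs 0.09.

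The scaling of the arrays bears on the signs above. The 75th percentile used for scaling was 224 to 333 units in megabladder and 348 to 496 units in wild-type arrays, a log2 difference of -0.61 with no overlap. The arrays shared 1 slide, and by their position codes each genotype filled a row of its own, so an effect of the row cannot be told apart from one of genotype. Before scaling, miR-196a had 105, 111 and 86.3 units in megabladder mice 2, 3 and 4, against 149, 174, 155 and 118 units in wild-type mice 1 to 4. Unscaled miR-196b had 110.5, 118 and 98.9 units in the megabladder mice, against 156, 181, 165 and 123 units in the wild-type mice. Neither overlapped, as was so, lower in megabladder, for 39.9% of all tested microRNAs without scaling. Unscaled miR-196a passed at -0.56 (limma adjusted p = 0.0483), where 31.9% of all tested microRNAs passed as lower and the median of all stood at -0.50. Unscaled miR-10a had 421, 713 and 297 units in the megabladder mice and 679, 891, 835 and 570.1 units in the wild-type mice, which overlapped through megabladder mouse 3. Relative to the median of all tested microRNAs, the main scaling put miR-10a at -0.19, miR-10b at -0.20, miR-196a at -0.03 and miR-196b at 0.02. Quantile scaling put them at 0.04, 0.03, 0.07 and 0.06, and the unscaled values at -0.21, -0.22, -0.06 and -0.0074. Scaling by all probes moved the median of all microRNAs to -0.62 and put the members at -0.22, -0.23, -0.06 and -0.01 relative to it. Normexp background correction moved it to 0.42 and put them at -0.53, -0.49, -0.22 and -0.21. The main scaling, scaling by all probes and no scaling differ by a single factor per array. Such a factor cancels in values relative to the median, apart from the floor. That these settings lie close together was therefore fixed in advance.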

How the data were processed

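Total RNA (100 ng) of each kidney carried the dye Cy3, as the labels' protocols state, and was read on 1-colour Agilent mouse microRNA arrays. Per the file headers, the authors obtained spot intensity with Agilent Feature Extraction 10.7.3.1. The deposited intensity columns are background-subtracted, raw median and total gene signals, with no scaling between arrays. The deposited value table also holds intensity values, with scaling not given in the sources used here. Up to a break in name order, its array means above its lowest value lay within 1 log2 unit of the total gene signal. That signal was first brought to the same distribution by rank, so the check is a loose one. Before the break lay 190 of the tested microRNAs and all 4 members, and the value table served as an alternative only.

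Control spots and spots with outlier flags (3.45% to 3.77% per array) were left out, and 0 spots were saturated. Each probe's spots were averaged, and each array was divided by its 75th percentile, taken over the 292 probes well above background (at least 0.5 of spots) on all arrays. A floor of 11.4 units, set from the 1st percentile of clearly detected probes on each array, was applied before log2. A microRNA's level averages those of its probes that were well above background on 3 or more arrays. The 39 viral microRNAs were not tested. Genotypes were compared with lmFit and eBayes (limma 3.58.1, R 4.3.3), tested on simulated data, and ratios with exact permutation tests. Normexp was run on median spot signals, since the planned means are not in the files used here. By the labels, every array comes from a different mouse, and the median difference between any 2 arrays was at least 2.22 spot standard errors, where noise alone gives 0.674.

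The members, lists, alternatives and naming rule were chosen with earlier results of these data known. Named are the members, other Hox cluster microRNAs, miR-99a, miR-99b and miR-100, the 3 non-members most like each member, miR-192 and marker lists. The array headers name another genome build than the RefSeq tables, so no coordinates are given. Figures used matplotlib 3.10.9.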

Additional observations from a re-analysis of the deposited data

How the results depend on the processing

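The difference of miR-196a turned negative with scaling by all probes (-0.69), by quantiles (-0.067), by the median (-0.10) and with no scaling (-0.56, the 1 member called under any alternative), in the deposited value table (-0.030), with its dimmest probe alone (-0.025) and without wild-type mice 3 and 4 together (-0.075). That of miR-196b turned negative under the same scalings (-0.64, -0.079, -0.053 and -0.51), in that table (-0.0074), without those mice (-0.014), and at -0.22 with outlier spots kept, an alternative chosen after seeing the data. In that last case 1 probe of wild-type mouse 1 averaged 1439 unscaled units, against 229.9 over the 9 spots kept. Leaving out 1 mouse at a time gave -0.29 to 0.052 for miR-10a, -0.23 to 0.0030 for miR-10b, -0.010 to 0.13 for miR-196a and 0.03 to 0.19 for miR-196b. The miR-10a to miR-10b ratio turned to -0.043 with normexp, -0.16 in the deposited table, and -0.0077 and -0.016 with single probes. The miR-196a to miR-196b ratio turned to 0.012 with quantiles and 0.27 with outlier spots kept. With the brighter miR-196b probe alone it was -0.078, with a 2-sided exact permutation p of 0.0286, the smallest that 35 splits allow. After adjustment over the 2 ratios that p was 0.0571 and did not pass. Without 1 mouse these ratios ran from -0.06 to 0.05 and from -0.07 to -0.01, given as values with no test. Except where a value shows it, the cause was not tested.

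Over all microRNAs, 6 were called higher and 1 lower, against 0 and 0 in limma with all probes, quantiles, total gene signal, normexp, no filter or a floor of 1 unit (26 to 107 at an unadjusted p under 0.05). The counts were 1 higher with median scaling, 1 higher and 68 lower unscaled, 3 higher with probes above background on all arrays, 0 higher in the deposited table, 1 higher and 0 lower without wild-type mice 3 and 4, and 0 to 18 higher and 0 to 1 lower without 1 mouse. Between mice of the same number the correlations of deviations were -0.21, 0.0066 and 0.21 for mice 2, 3 and 4. These values do not settle whether the numbers pair the samples. With the number as a replicate block in limma, over mice 2 to 4, 27 were called higher, 1 lower and no member. The same arrays without the block gave 0 higher and 0 lower.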
